A study of Mus musculus with 3 samples.

Results

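Glycosaminoglycans are long sugar chains, most of them built in the Golgi on the core proteins of proteoglycans. Most of the 53 genes described here encode enzymes that start, extend and modify these chains. Others encode extracellular sulfatases, which remove sulfate, or enzymes of other glycans. All 53 were taken by symbol from the 56748 genes of the deposited table, as the protein-coding genes of the linkage, polymerase, sulfotransferase and uronyl epimerase families and of the extracellular sulfatases. Expression was measured by RNA sequencing in cultured fibroblasts of visceral adipose tissue from wild-type (WT) mice on a high-fat diet. These were cells of the stromal vascular fraction, which fat holds beside its adipocytes, that remained after magnetic sorting against CD45, CD31 and Ter119. One culture received TGF-beta1 (transforming growth factor beta 1, the human recombinant protein) at 3 ng/mL for 24 h. Another received recombinant mouse Osm (oncostatin M, a cytokine of the interleukin 6 family) at 3 ng/mL for 24 h. The remaining one is labelled Veh and Control, called vehicle here, with no time of its own in the labels, which also leave out age, sex, and the number and pooling of mice. With 1 library for each condition there is no measure of the spread between cultures, and no p-value is given. Each interval is an exact 95% interval for the ratio of a gene's reads in a pair of libraries and covers counting error only. It narrows as reads rise, so in a gene with many reads a small difference can lie clear of a ratio of 1.

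Chains of heparan, chondroitin and dermatan sulfate all begin with the same short linkage sequence of sugars, whose first unit, xylose, sits on a serine of the core protein. A glucosamine residue added next commits the chain to heparan sulfate, and a galactosamine residue commits it to chondroitin or dermatan sulfate. Sulfotransferases and epimerases then modify the chain in patches, and the pattern of sulfate groups bears on which growth factors and cytokines the chain holds. Extracellular sulfatases remove some of these groups after the chain has reached the cell surface or matrix. In adipose tissue, fibroblasts make much of the proteoglycan matrix around adipocytes.

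The libraries held 17319872 to 18533741 counted reads, so that a gene without a read could lie as high as 0.163 to 0.173 CPM (reads scaled to library size). All 7 fibroblast markers were above 1 CPM in every library, and with TGF-beta1 the counting intervals lay above vehicle for 2 of them and below for 5. Among them, Col1a1 was at 8039, 4023 and 4285 CPM and Pdgfra at 697.5, 1122 and 1129 CPM in TGF-beta1, Osm and vehicle cells. All 6 erythroid markers were at 0, and the pan-leukocyte gene Ptprc reached at most 0.115 CPM. The 8 leukocyte markers summed to 4.83, 7.66 and 10.6 CPM in TGF-beta1, Osm and vehicle cells, most of it from Cd68. The 6 mesothelial markers summed to 49.8, 40.4 and 41.2 CPM, most of it from Wt1, at 43.4, 36.1 and 37.1 CPM. Krt19, at 1.52, 0.634 and 0.652 CPM, and Upk1b, at 1.79, 0.922 and 0.87 CPM, passed 1 CPM only through the TGF-beta1 library. The 6 endothelial markers summed to 36.3 CPM with TGF-beta1, 40.7 CPM with Osm and 50.4 CPM with vehicle, nearly all from Tek, at 34.4, 38.9 and 48.5 CPM, while Cdh5 was at 0.488, 1.04 and 1.2 CPM and Tie1 at 0. The myofibroblast genes Acta2, at 1327, 421.7 and 445.6 CPM in TGF-beta1, Osm and vehicle cells, and Tagln, at 909.3, 290.8 and 318.4 CPM, were highest with TGF-beta1. So was the TGF-beta target gene Ccn2, at 1936, 933.9 and 987.1 CPM. Socs3, a feedback inhibitor of cytokine signalling, was at 54.5, 87.1 and 54.3 CPM and the Osm receptor gene Osmr at 454.3, 568.6 and 487.5 CPM, both highest with Osm.

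Of the 53 enzyme genes, 38 reached 1 CPM in at least 1 library, and 7 had no read in any library. The 7 were Ndst3, Ndst4, Hs3st2, Hs3st5, Hs6st3, Chst4 and Chst9. The other 8, Hs3st3a1, Hs3st3b1, Hs3st4, Hs3st6, Chst3, Chst5, Chst8 and B3gat1, had between 0 and 11 reads per library. Hs3st1 was the one heparan sulfate 3-O-sulfotransferase gene of 7 above 1 CPM. Chst13 passed only through the TGF-beta1 library, so its difference from the other libraries is in part set by that filter. All 53 genes together summed to 3913 CPM with TGF-beta1, 3519 CPM with Osm and 3226 CPM with vehicle. Sulf1 alone accounts for most of the gap between TGF-beta1 and vehicle, with 1120.4 CPM in TGF-beta1 cells and 536.4 CPM in vehicle cells.

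**Figure D1:**
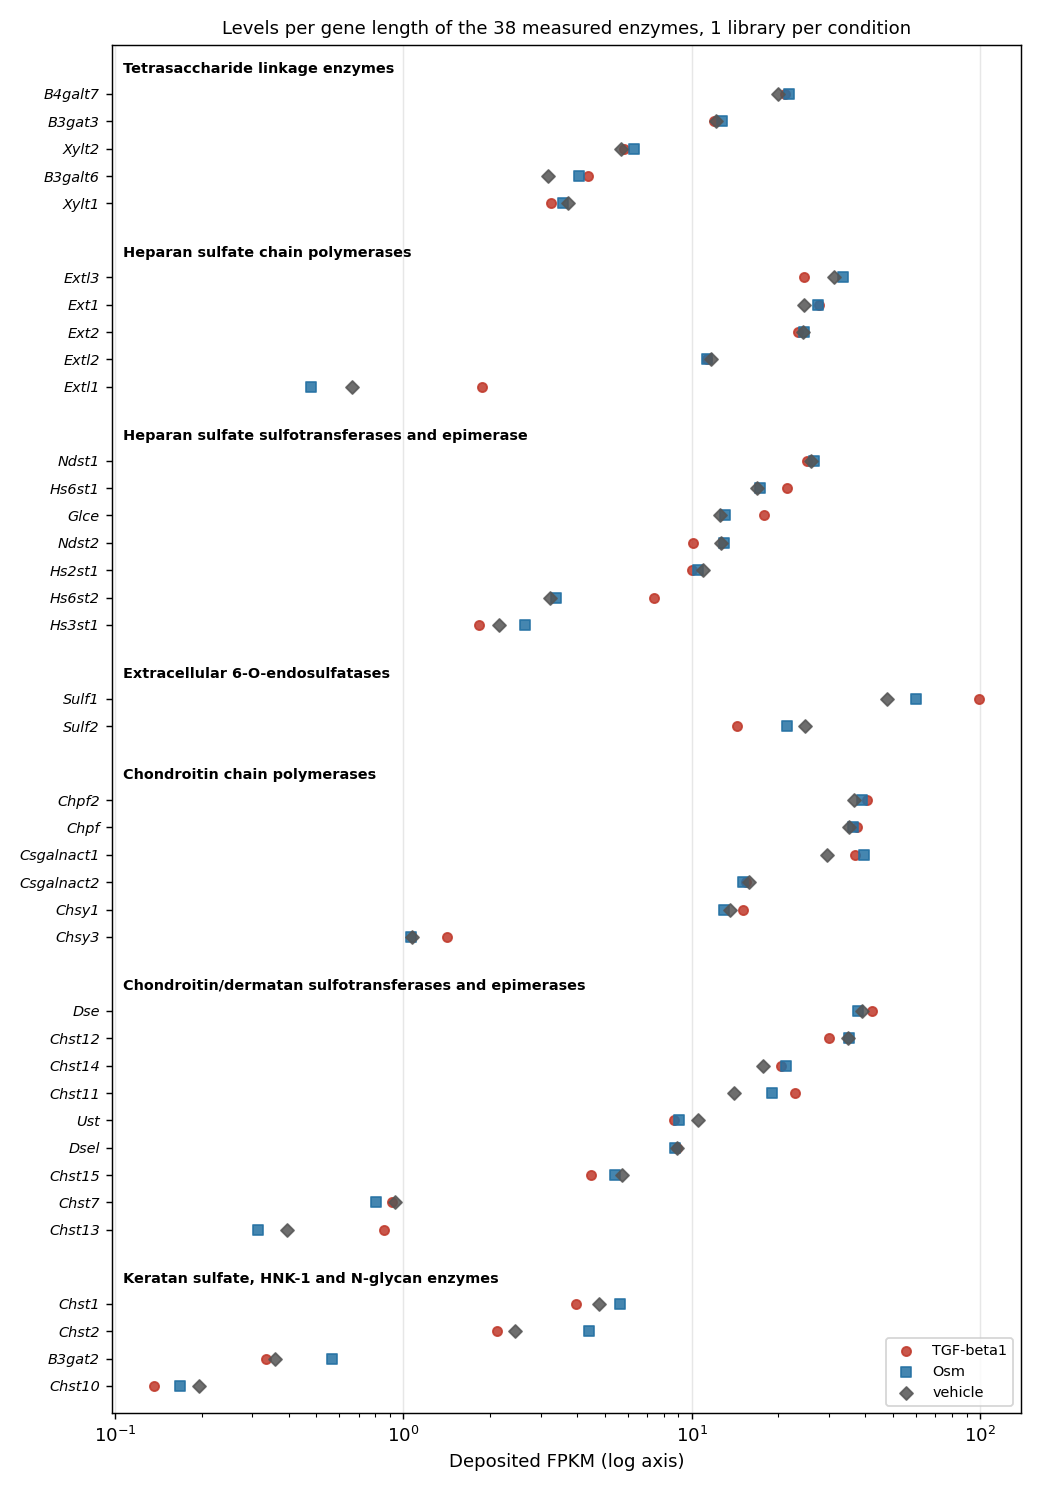
Levels of the 38 enzyme genes that reached 1 CPM, as deposited FPKM (fragments per kilobase of gene length and per 1e6 fragments, log axis), with 1 point per library in TGF-beta1, Osm and vehicle cells and the genes grouped by role. Sulf1 is the highest gene in each library, at 99.4 FPKM with TGF-beta1, 59.8 FPKM with Osm and 47.5 FPKM with vehicle.

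With TGF-beta1, 4 of the 38 measured genes were 2-fold or more above vehicle, where 2.27% of the 13712 genes tested were, and 0 were 2-fold or more below it, where 4.79% were. A gene was counted where its log2 ratio of CPM was at least 1 in size and its counting interval excluded a ratio of 1. The 4 were the sulfatase gene Sulf1, the sulfotransferase genes Hs6st2 and Chst13, and the polymerase-family gene Extl1. Chst13 was among the 38 only through the TGF-beta1 library, so its place in this count is in part set by the filter. When only genes at 10 CPM or more were counted, Sulf1 and Hs6st2 remained. At 1.5-fold, Chst11 joined the 4, 5 of 38 beside 6.01% of all genes tested, and Sulf2 was the 1 gene lower, beside 9.53%. The median log2 ratio of the 38 was -0.01, beside 0.01 over all genes tested, and 21 of the 38 (55.3%) lay within 1.2-fold of vehicle, beside 53.3% of all genes tested. Over all 38, with those few genes included, the enzymes as a group were thus centred on the vehicle level. Counting intervals lay above 1 for 16 of the 38, below 1 for 8 and included 1 for 14, beside 27.8%, 24.2% and 48.0% of all genes tested.

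With Osm, 0 of the 38 were 2-fold or more above vehicle, beside 0.948% of all genes tested, and 0 were below it, beside 0.649%. Their median log2 ratio was 0.04, beside 0.00 over all genes tested, and 28 of the 38 (73.7%) lay within 1.2-fold, beside 77.8% of all genes tested. Counting intervals lay above 1 for 11 of the 38, below 1 for Sulf2 and Ust, and included 1 for 25, beside 10.9%, 10.6% and 78.5% of all genes tested. Both comparisons use the same vehicle library, so an error in it enters both.

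**Figure D2:**
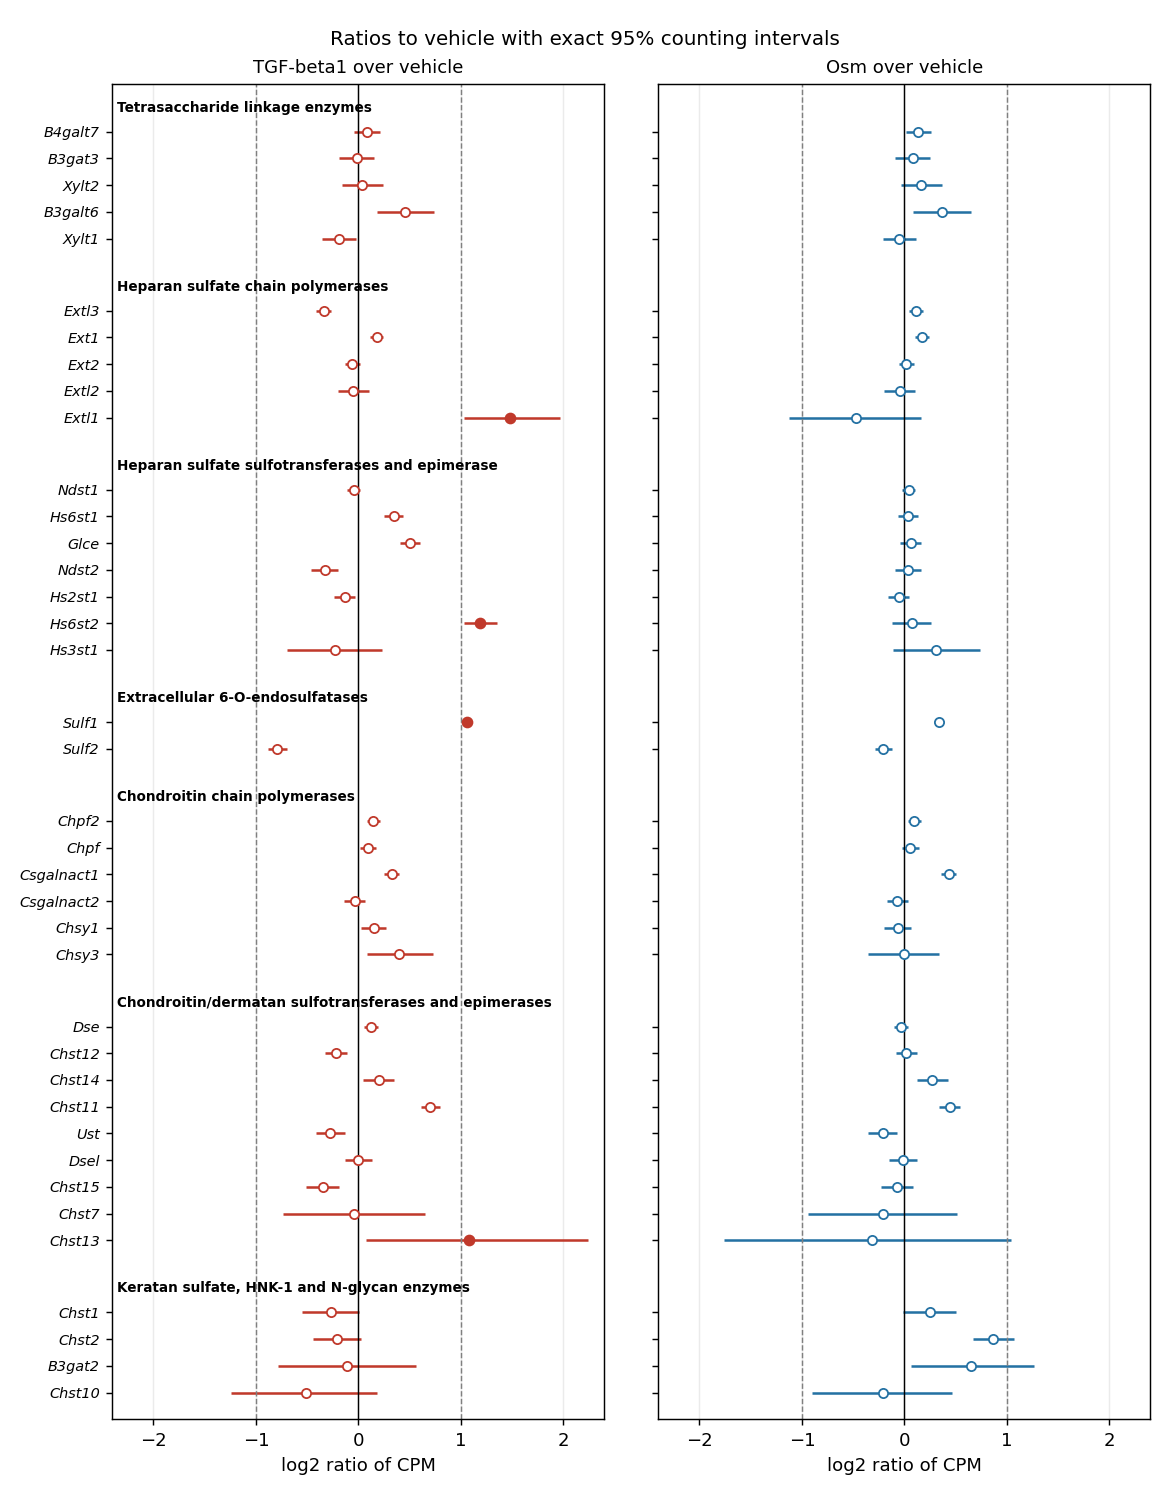
Log2 ratio of CPM for the 38 measured genes, TGF-beta1 over vehicle (left) and Osm over vehicle (right), with lines for the exact 95% counting interval, dashed lines at 2-fold, and filled symbols for genes counted as 2-fold or more different. The filled symbols are Extl1, Hs6st2, Sulf1 and Chst13 in the left panel, and the right panel has none, with Chst2 nearest to the upper dashed line at 0.86.

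The extracellular sulfatases differed in opposite directions. Sulf1 and Sulf2 remove the sulfate from the 6-O position of glucosamine in finished heparan sulfate chains. Sulf1 (ENSMUSG00000016918, chromosome 1, 12762501 to 12931416, build mm39) was at 1120.4 CPM in the TGF-beta1 library, 678.2 CPM in the Osm library and 536.4 CPM in the vehicle library. It was highest with TGF-beta1, 2.09-fold higher (2.04 to 2.14) than with vehicle, and with Osm 1.26-fold higher (1.23 to 1.3) than with vehicle. Sulf2 (ENSMUSG00000006800, chromosome 2, 165915009 to 165997583) ran the other way, at 84.1 CPM with TGF-beta1, 126.4 CPM with Osm and 145.6 CPM with vehicle. It was lowest with TGF-beta1, 1.73-fold lower (1.63 to 1.84) than with vehicle, and with Osm 1.15-fold lower (1.09 to 1.22). Sulf2 overlaps Ncoa3 on the opposite strand, and whether reads were counted by strand was not given. Ncoa3 was at 80.7, 86.8 and 81.6 CPM in TGF-beta1, Osm and vehicle cells.

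Per gene length, Sulf1 was the highest of the 53 genes in each library. It made up 15.6% of their summed FPKM with TGF-beta1, 9.88% with Osm and 8.41% with vehicle. Among all protein-coding genes its rank by FPKM was 408 with TGF-beta1, 725 with Osm and 920 with vehicle. The ratio of Sulf1 to Sulf2 in FPKM was 6.93 with TGF-beta1, 2.79 with Osm and 1.91 with vehicle.

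Both measured genes for the enzymes that place the 6-O-sulfate were also higher with TGF-beta1. Hs6st1, the higher of them per gene length, was at 118.9 CPM with TGF-beta1, 96 CPM with Osm and 93.6 CPM with vehicle. It was 1.27-fold higher (1.19 to 1.35) with TGF-beta1 than with vehicle, and its ratio of Osm to vehicle was 1.03 (0.958 to 1.1). Its paralogue Hs6st2 (ENSMUSG00000062184, chromosome X, 50476089 to 50770733) was at 57.6 CPM with TGF-beta1, 26.5 CPM with Osm and 25.2 CPM with vehicle. The TGF-beta1 library stood apart for Hs6st2, 2.28-fold higher (2.04 to 2.55) than vehicle, while the ratio of Osm to vehicle was 1.05 (0.922 to 1.2). In FPKM, Hs6st2 was 0.344 of Hs6st1 with TGF-beta1, 0.196 with Osm and 0.191 with vehicle. The summed FPKM of both sulfatases over that of both sulfotransferases was 3.94 with TGF-beta1, 3.94 with Osm and 3.59 with vehicle, a narrower span than that of Sulf1 or Hs6st2 alone.

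**Figure D3:**
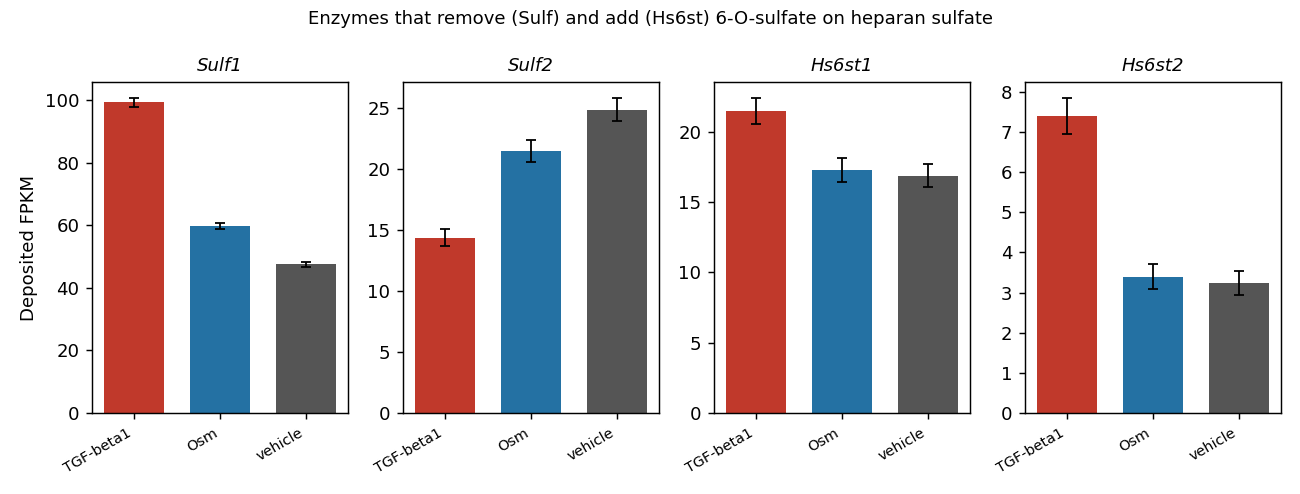
Deposited FPKM of Sulf1, Sulf2, Hs6st1 and Hs6st2 in the TGF-beta1, Osm and vehicle libraries, each gene with its own axis, with exact 95% Poisson intervals that cover counting error only. Sulf1 and Hs6st2 are highest with TGF-beta1, at 99.4 and 7.39 FPKM against 47.5 and 3.23 FPKM with vehicle, and Sulf2 is lowest there, at 14.4 FPKM against 24.8 FPKM with vehicle.

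The promoter windows of 4 genes with large ratios are printed as examples of the sequence at their starts. They are RefSeq windows on build GRCm38.p6, from 250 bases before to 50 after a gene's start, in the direction of transcription, on another build than that of the deposited table. Windows were matched by symbol for 42 of the 53 genes, 49 windows in all. Capitals mark matches on either strand to CAGAC, the Smad box bound by the transcription factors of TGF-beta signalling, or to TTCNNNGAA, a site bound by Stat factors, which Osm activates. Hs6st2 (chrX:51681553-51681852 and chrX:51680428-51680727, minus strand) and Extl1 (chr4:134372498-134372797, minus strand) were higher with TGF-beta1. Sulf2 (chr2:166155634-166155933 and chr2:166155236-166155535, minus strand) was lower with TGF-beta1, and Chst2 (chr9:95407221-95407520, minus strand) was higher with Osm.
Hs6st2, upstream start: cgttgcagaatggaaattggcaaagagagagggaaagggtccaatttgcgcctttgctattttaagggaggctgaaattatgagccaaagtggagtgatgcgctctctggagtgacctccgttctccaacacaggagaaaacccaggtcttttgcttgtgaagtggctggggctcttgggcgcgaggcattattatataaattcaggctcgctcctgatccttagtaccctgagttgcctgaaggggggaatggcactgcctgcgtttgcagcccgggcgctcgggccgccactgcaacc
Hs6st2, downstream start: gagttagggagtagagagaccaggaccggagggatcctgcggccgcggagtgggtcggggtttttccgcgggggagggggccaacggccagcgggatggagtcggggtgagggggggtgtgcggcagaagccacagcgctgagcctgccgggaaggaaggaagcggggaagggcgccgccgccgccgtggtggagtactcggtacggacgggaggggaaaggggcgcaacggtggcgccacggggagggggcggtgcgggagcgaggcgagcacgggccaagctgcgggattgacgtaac
Extl1: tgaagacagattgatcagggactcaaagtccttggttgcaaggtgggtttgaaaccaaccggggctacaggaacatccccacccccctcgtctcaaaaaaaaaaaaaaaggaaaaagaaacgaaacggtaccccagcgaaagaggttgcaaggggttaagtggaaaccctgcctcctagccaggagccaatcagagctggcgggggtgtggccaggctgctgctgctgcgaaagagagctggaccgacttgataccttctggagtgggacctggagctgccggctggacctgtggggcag
Sulf2, upstream start: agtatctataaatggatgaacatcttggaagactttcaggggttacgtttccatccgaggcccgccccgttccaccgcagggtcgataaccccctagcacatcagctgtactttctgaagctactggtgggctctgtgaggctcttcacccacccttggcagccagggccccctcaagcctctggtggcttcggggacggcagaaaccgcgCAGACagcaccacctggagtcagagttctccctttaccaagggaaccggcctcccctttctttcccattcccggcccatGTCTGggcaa
Sulf2, downstream start: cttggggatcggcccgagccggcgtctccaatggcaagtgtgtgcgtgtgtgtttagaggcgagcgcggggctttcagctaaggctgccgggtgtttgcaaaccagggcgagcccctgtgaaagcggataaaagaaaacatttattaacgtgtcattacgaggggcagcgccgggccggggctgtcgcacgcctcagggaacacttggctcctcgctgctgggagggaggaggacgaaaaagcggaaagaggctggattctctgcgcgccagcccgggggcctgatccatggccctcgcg
Chst2: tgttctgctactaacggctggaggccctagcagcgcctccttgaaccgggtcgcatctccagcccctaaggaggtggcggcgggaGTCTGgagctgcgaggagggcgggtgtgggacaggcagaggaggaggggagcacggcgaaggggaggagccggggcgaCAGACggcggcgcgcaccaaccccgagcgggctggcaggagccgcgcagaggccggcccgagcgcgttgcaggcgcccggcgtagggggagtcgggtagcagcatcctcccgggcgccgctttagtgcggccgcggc
The windows of Hs6st2 and Extl1 hold neither motif, nor do those of Chst11 and Chst13, which are not printed, and those of Chst2 and of the upstream start of Sulf2 each hold the Smad box 2 times. Over the enzyme genes, 24 of 49 windows (49.0%) held CAGAC, beside 49.6% of the 32851 windows in the whole table. The Stat site was in 1 of the 49 (2.04%), that of Dsel, beside 8.30% of all windows. The median GC content was 65.3% over the windows of the enzyme genes and 52.7% over all windows. A match is a description of the letters and not a shown binding site, and the absence of a match concerns these windows alone.

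Among the other modifiers of heparan sulfate, differences were below 2-fold. Glce, the epimerase that turns glucuronic into iduronic acid, was at 121.7 CPM with TGF-beta1, 89.6 CPM with Osm and 85.9 CPM with vehicle, 1.42-fold higher (1.33 to 1.51) with TGF-beta1 than with vehicle. Ndst1, which replaces acetyl by sulfate on glucosamine, was at 208, 220.8 and 214.7 CPM in TGF-beta1, Osm and vehicle cells, values that lie close together. It overlaps the ribosomal gene Rps14 on the opposite strand, which was at 367.7, 390.4 and 382.8 CPM. Its paralogue Ndst2 was 1.26-fold lower (1.15 to 1.38) with TGF-beta1, and the 2-O-sulfotransferase gene Hs2st1 was 1.1-fold lower (1.02 to 1.18). Hs3st1, whose product makes the rare sulfate that antithrombin binds, was at 4.07, 5.94 and 4.78 CPM in TGF-beta1, Osm and vehicle cells, and the intervals of both its ratios to vehicle included 1. In all, 7 of the 16 sulfotransferase and epimerase genes of this branch were measured, and with Osm the intervals of all 7 included a ratio of 1, as did those of 78.5% of all genes tested.

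Of the 5 chain-building genes of the heparan sulfate branch, Extl1 alone was 2-fold higher with TGF-beta1 than with vehicle, where 2.27% of all genes tested were. With TGF-beta1 0 of the 5 were 2-fold lower, where 4.79% of all genes tested were. Ext1 and Ext2 encode the polymerase pair, Extl3 the transferase that commits the chain to heparan sulfate, and Extl1 a related glucosaminyltransferase. Extl1 (ENSMUSG00000028838, chromosome 4, 134083683 to 134111161) was low throughout, with 149 reads (8.08 CPM) in the TGF-beta1 library, 36 (2.07 CPM) in the Osm library and 53 (2.88 CPM) in the vehicle library. It was 2.81-fold higher (2.04 to 3.92) with TGF-beta1 than with vehicle, and its ratio of Osm to vehicle was 0.72 (0.458 to 1.12). Extl3 was at 148.8 CPM with TGF-beta1, 203.8 CPM with Osm and 188.1 CPM with vehicle, 1.26-fold lower (1.2 to 1.33) with TGF-beta1. Extl3 was thus the one gene of the 5 whose interval lay below 1 with TGF-beta1, beside 24.2% of all genes tested. Ext1 was at 223.1, 221.9 and 197.3 CPM in TGF-beta1, Osm and vehicle cells, 1.13-fold higher (1.08 to 1.18) with TGF-beta1 and 1.12-fold higher (1.07 to 1.18) with Osm. Per gene length the polymerase pair was nearly even, Ext1 at 27.7, 27.4 and 24.4 FPKM and Ext2 at 23.4, 24.5 and 24.3 FPKM in TGF-beta1, Osm and vehicle cells. Extl2 was within 1.2-fold of vehicle with both ligands.

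Of the 5 linkage enzymes, which chains of both branches need, all but B3galt6 were within 1.2-fold of vehicle with either ligand. Xylt1 and Xylt2 attach the first xylose, B4galt7 and B3galt6 the galactoses that follow, and B3gat3 the glucuronic acid that completes the linkage. B4galt7 was at 61, 63.2 and 57.6 CPM and B3gat3 at 30.9, 33.1 and 31.3 CPM in TGF-beta1, Osm and vehicle cells. B3galt6 had the largest ratio among them, at 13.9 CPM with TGF-beta1, 13 CPM with Osm and 10.1 CPM with vehicle. It was 1.37-fold higher (1.13 to 1.67) with TGF-beta1 and 1.29-fold higher (1.06 to 1.57) with Osm. Xylt1, at 31.4, 34.6 and 35.8 CPM in TGF-beta1, Osm and vehicle cells, was 1.14-fold lower (1.02 to 1.28) with TGF-beta1. Xylt2 was at 23.2, 25.3 and 22.6 CPM, and both its intervals included 1.

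In the chondroitin branch, 5 of 6 genes that start and extend the chain had intervals above 1 with TGF-beta1, beside 27.8% of all genes tested. That share is over genes of all depths past the filter, and the intervals narrow as reads rise. With TGF-beta1 0 of the 6 were 2-fold different, where 2.27% of all genes tested were higher and 4.79% lower. Csgalnact1, which adds the galactosamine residue that commits a chain to chondroitin, was at 187.9 CPM with TGF-beta1, 202 CPM with Osm and 149.9 CPM with vehicle. Both treated libraries were above vehicle for Csgalnact1, 1.25-fold higher (1.19 to 1.32) with TGF-beta1 and 1.35-fold higher (1.28 to 1.42) with Osm. The polymerase genes Chpf2, at 225.9, 218.7 and 204.6 CPM, and Chpf, at 143.8, 140.6 and 135 CPM in TGF-beta1, Osm and vehicle cells, differed little. Chpf2 was 1.1-fold higher (1.06 to 1.15) and Chpf 1.06-fold higher (1.01 to 1.12) with TGF-beta1. Chsy3, the lowest gene of this group per gene length, was at 10.3, 7.72 and 7.77 CPM in TGF-beta1, Osm and vehicle cells, 1.32-fold higher (1.06 to 1.65) with TGF-beta1.

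Of the chondroitin and dermatan sulfotransferases, Chst11 had the largest ratio to vehicle among genes above 5 CPM, with each ligand. It encodes a chondroitin 4-O-sulfotransferase (ENSMUSG00000034612, chromosome 10, 82821332 to 83031734) and was at 126.2 CPM with TGF-beta1, 105.3 CPM with Osm and 77.5 CPM with vehicle. Both treated libraries exceeded vehicle, 1.63-fold higher (1.52 to 1.74) with TGF-beta1 and 1.36-fold higher (1.27 to 1.46) with Osm, short of 2-fold. Chst12, of the same specificity, was at 70.4, 83.2 and 82.1 CPM in TGF-beta1, Osm and vehicle cells, 1.17-fold lower (1.08 to 1.26) with TGF-beta1. Chst11 was 0.766 of Chst12 in FPKM with TGF-beta1, 0.541 with Osm and 0.404 with vehicle. Another gene of that specificity, Chst13 (ENSMUSG00000056643, chromosome 6, 90285331 to 90302167), had 26 reads with TGF-beta1, 9 with Osm and 12 with vehicle, the faintest of the 4 genes past 2-fold. Its ratio of TGF-beta1 to vehicle was 2.16 (1.05 to 4.71), an interval that nearly reaches 1.

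The remaining measured modifiers of chondroitin and dermatan sulfate each differed from vehicle by less than 1.5-fold with either ligand. Dse, an epimerase that makes dermatan from chondroitin, was the highest gene of its group per gene length, at 42.3, 37.7 and 38.9 FPKM in TGF-beta1, Osm and vehicle cells, and was 1.09-fold higher (1.04 to 1.14) with TGF-beta1. The dermatan 4-O-sulfotransferase gene Chst14, at 42.5, 44.6 and 37 CPM in TGF-beta1, Osm and vehicle cells, was 1.15-fold higher (1.03 to 1.27) with TGF-beta1 and 1.21-fold higher (1.09 to 1.34) with Osm. Ust, a 2-O-sulfotransferase gene, was 1.21-fold lower (1.09 to 1.33) with TGF-beta1 and 1.16-fold lower (1.05 to 1.28) with Osm. Chst15, which adds a further sulfate to 4-sulfated galactosamine, was at 30.3 CPM with TGF-beta1, 36.6 CPM with Osm and 38.6 CPM with vehicle, 1.27-fold lower (1.14 to 1.43) with TGF-beta1. Fgfr2, which overlaps Chst15 on the same strand, was at 1.95, 4.55 and 5.22 CPM in TGF-beta1, Osm and vehicle cells, also lowest with TGF-beta1, and its part in the Chst15 reads was not tested. The 6-O-sulfotransferase genes of chondroitin were scarce, with 37, 31 and 38 reads for Chst7 and 1, 1 and 4 for Chst3 in TGF-beta1, Osm and vehicle cells.

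The enzymes of keratan sulfate and other glycans included the largest Osm difference of the 38. Chst2 (ENSMUSG00000033350, chromosome 9, 95281345 to 95288775) encodes a sulfotransferase of N-acetylglucosamine, in keratan sulfate and in ligands of selectins. It was at 15.5 CPM with TGF-beta1, 32.4 CPM with Osm and 17.8 CPM with vehicle. The Osm library alone was high, 1.82-fold higher (1.59 to 2.09) than vehicle, and the ratio of TGF-beta1 to vehicle was 0.867 (0.738 to 1.02). At 1.5-fold, 2 of 38 genes were higher with Osm, Chst2 and B3gat2, beside 2.1% of all genes tested, and 0 were lower, beside 1.66%. B3gat2, a glucuronyltransferase of the HNK-1 epitope, was at 2.06, 3.52 and 2.23 CPM in TGF-beta1, Osm and vehicle cells. It is uncertain, since Smap1 on the opposite strand was at 82.6, 74.1 and 81.1 CPM. Chst1, a keratan sulfate galactose sulfotransferase gene, was at 10.6, 15.2 and 12.8 CPM in TGF-beta1, Osm and vehicle cells, and both its intervals against vehicle included 1.

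Set directly against TGF-beta1, Osm gave 1 gene of 38 that was 2-fold or more higher, beside 5.07% of all genes tested, and 3 that were lower, beside 2.42%. Chst2 was 2.1-fold higher (1.82 to 2.43) with Osm than with TGF-beta1. Extl1 was 3.9-fold lower (2.69 to 5.78), Chst13 2.72-fold lower (1.24 to 6.6) and Hs6st2 2.17-fold lower (1.94 to 2.43). Chst13 was among the 38 only through the TGF-beta1 library. At 1.5-fold, Sulf2 and B3gat2 made 3 genes higher with Osm, beside 9.93% of all genes tested, and Sulf1 made 4 lower, beside 6.16%. Sulf1 was 1.65-fold lower (1.61 to 1.69) and Sulf2 1.5-fold higher (1.41 to 1.6) with Osm than with TGF-beta1.

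Around the enzymes, 22 of 23 genes that supply activated sugars and sulfate were measured, and their median log2 ratio was 0.05 with TGF-beta1 and 0.01 with Osm. With either ligand 0 of them were 2-fold different. Of all genes tested, 2.27% were higher and 4.79% lower with TGF-beta1, and 0.948% higher and 0.649% lower with Osm. Ugdh, which makes UDP-glucuronic acid, was at 212.6, 241.7 and 230.6 CPM and Gfpt2, of the hexosamine pathway, at 467.2, 502.3 and 468 CPM in TGF-beta1, Osm and vehicle cells. The largest ratios of that list with TGF-beta1 were those of Bpnt1, which clears a by-product of sulfation and was 1.69-fold higher (1.5 to 1.91) at 39.6, 25.2 and 23.4 CPM in TGF-beta1, Osm and vehicle cells, and of the hexosamine gene Gnpnat1, 1.52-fold higher (1.38 to 1.68) at 55.6, 40.3 and 36.5 CPM. Fam20b, the kinase that phosphorylates the linkage xylose, was at 72, 68.5 and 70.2 CPM in TGF-beta1, Osm and vehicle cells. Pxylp1, the phosphatase that reverses this step, was at 49.8, 92.2 and 99.2 CPM, 1.99-fold lower (1.84 to 2.16) with TGF-beta1 than with vehicle. It lay at the 2-fold threshold, with a log2 ratio of -0.99, and passed it at -1.01 when library totals were used without TMM.

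Genes that degrade the chains were lower with TGF-beta1. Of 17 genes that degrade glycosaminoglycans or activate sulfatases, 16 had intervals below 1, beside 24.2% of all genes tested. That share is over genes of all depths past the filter, and the intervals narrow as reads rise. At least 2-fold lower were 2 of the 17, beside 4.79% of all genes tested. The median log2 ratio of the 17 was -0.54, beside 0.01 over all genes tested. The exception was the sulfatase-modifying gene Sumf2, with a ratio of 1.11 (0.989 to 1.25). Heparanase (Hpse), which cuts heparan sulfate chains, was at 17.2 CPM with TGF-beta1, 45.1 CPM with Osm and 39.7 CPM with vehicle, 2.31-fold lower (2.02 to 2.64) with TGF-beta1. Hexa, a subunit of lysosomal hexosaminidase, was at 160.9 CPM with TGF-beta1, 337.9 CPM with Osm and 325.1 CPM with vehicle, 2.02-fold lower (1.93 to 2.11) with TGF-beta1. The TGF-beta1 library was the low one for both. With Osm the same list had a median of -0.03 and 0 genes 2-fold different, beside 0.948% higher and 0.649% lower of all genes tested. The macrophage and lysosome gene Cd68 was at 3.69, 6.68 and 8.91 CPM in TGF-beta1, Osm and vehicle cells, and the 8 leukocyte markers summed to 4.83, 7.66 and 10.6 CPM. Of these 8, Cd3e and Itgam were at 0 in all libraries and Ptprc was at 0, 0.115 and 0 CPM. The part of such cells in the lower values was not tested. In cultures such as these, fewer cells of a type and less RNA per cell cannot be told apart.

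In each list of core proteins that carry the chains, at least 1 gene was 2-fold different with TGF-beta1. Of 12 measured heparan sulfate core protein genes, 1 was at least 2-fold lower with TGF-beta1, beside 4.79% of all genes tested, and 0 were higher, beside 2.27%. The one was the syndecan gene Sdc4, at 49.2, 123.8 and 100.4 CPM in TGF-beta1, Osm and vehicle cells, 2.04-fold lower (1.88 to 2.21). Perlecan (Hspg2) was at 2506, 1922 and 1812 CPM, 1.38-fold higher (1.36 to 1.4), Sdc2 at 409.9, 456.9 and 484.6 CPM, and Col18a1 at 72.5, 126.7 and 144.6 CPM, 1.99-fold lower (1.87 to 2.13). Under library totals without TMM, Col18a1 also passed 2-fold, at a log2 ratio of -1.01, which made 2 of the 12 lower. With TMM, the median log2 ratio of the 12 was -0.27 with TGF-beta1, beside 0.01 over all genes tested. Their intervals lay below 1 for 9 and above 1 for 3, beside 24.2% and 27.8% of all genes tested. Here and for the next list, those shares are over genes of all depths past the filter, and the intervals narrow as reads rise. At 1.5-fold, 4 of the 12 were lower, beside 9.53%, and 0 were higher, beside 6.01%. Of 8 measured chondroitin and dermatan sulfate core protein genes, 2 were at least 2-fold higher with TGF-beta1, Cspg4 and Esm1, beside 2.27% of all genes tested, and 1 was lower, decorin (Dcn), beside 4.79%. At 1.5-fold, 4 of the 8 were higher, beside 6.01%, and 1 was lower, beside 9.53%. The median log2 ratio of the 8 was 0.53, beside 0.01 over all genes tested. Their intervals lay above 1 for 5 and below 1 for 1, beside 27.8% and 24.2% of all genes tested. Cspg4, which is also a marker of mural cells, was at 74.9, 7.38 and 8.53 CPM in TGF-beta1, Osm and vehicle cells, while the mural genes Notch3, at 10.4, 15.5 and 14.6 CPM, and Myh11, at 6.56, 8.53 and 9.35 CPM, were lowest with TGF-beta1. Dcn was at 823.9, 1757 and 1984 CPM in TGF-beta1, Osm and vehicle cells, 2.41-fold lower (2.36 to 2.45), and biglycan (Bgn) at 6774, 6331 and 6318 CPM. Esm1, named after its values were seen, had 41, 13 and 7 reads in TGF-beta1, Osm and vehicle cells. It passed 1 CPM only through the TGF-beta1 library, so its difference is in part set by that filter. Of 6 measured genes of keratan sulfate cores and chain enzymes, 2 were at least 2-fold lower with TGF-beta1, beside 4.79% of all genes tested. They were Prelp, at 87.5, 214.2 and 240.4 CPM in TGF-beta1, Osm and vehicle cells, and Ogn, at 58.6, 81.9 and 123.7 CPM. Lumican (Lum) was at 179.6, 219.7 and 286.3 CPM, 1.59-fold lower (1.53 to 1.67) with TGF-beta1, and the chain enzyme gene B4galt1 at 289.9, 315 and 311.5 CPM. With Osm, 0 genes of these core lists were 2-fold different, beside 0.948% higher and 0.649% lower of all genes tested. At 1.5-fold, 2 of the 6 in the keratan sulfate list were lower with Osm, beside 1.66% of all genes tested. They were Fmod, 1.66-fold lower (1.3 to 2.13), and Ogn, 1.51-fold lower (1.41 to 1.62).

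**Figure D4:**
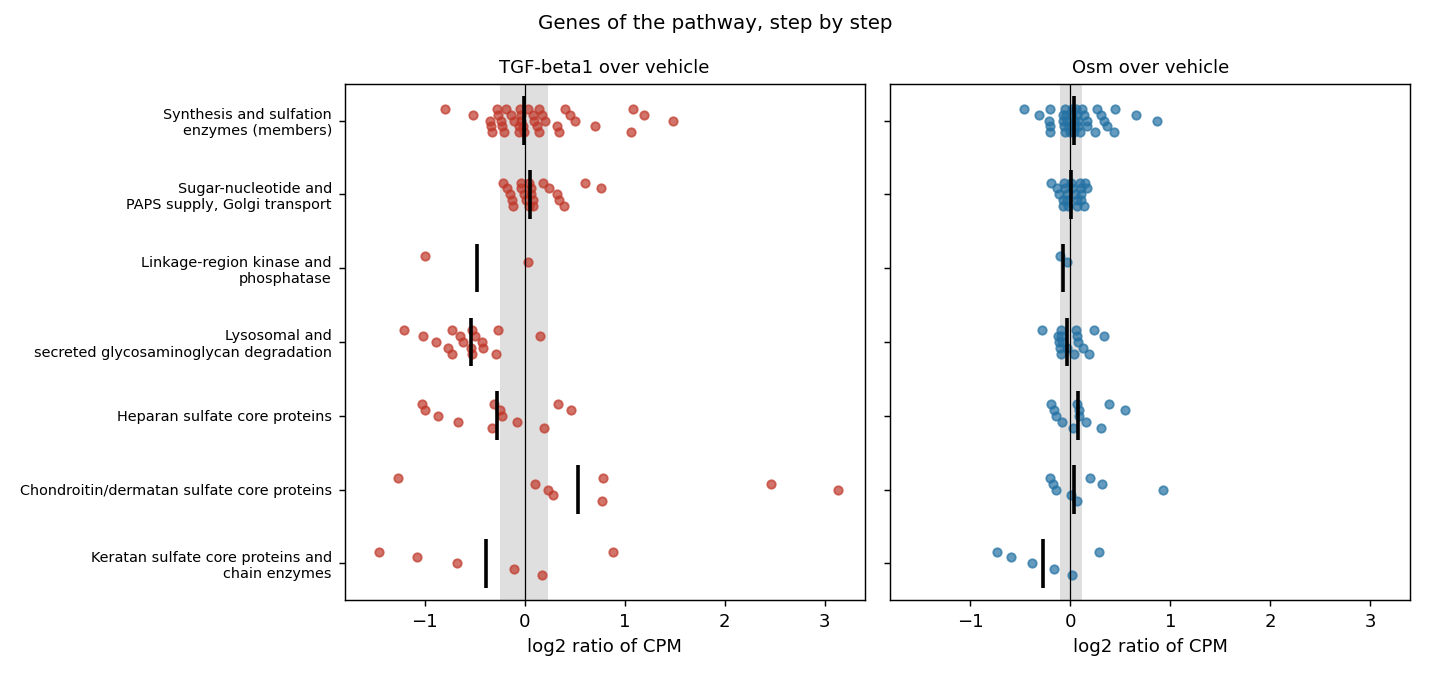
Log2 ratio of CPM over vehicle for TGF-beta1 (left) and Osm (right), for the measured enzyme genes and the measured genes of neighbouring steps, with 1 point per gene and a bar at each list's median. With TGF-beta1 the points for chain degradation lie left of 0 for 16 of 17 genes (median -0.54), with Osm around 0 (median -0.03), and the enzymes are centred near 0 in both panels.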

How the data were processed

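RNA sequencing of 3 libraries was analysed. Per the labels' protocols, messenger RNA was purified with poly-T beads and primed with random hexamers, and the text covers libraries with and without strand information. The authors deposited whole-number counts of reads for each Ensembl gene, and FPKM values. The tools named in the submitters' processing notes are CASAVA, HISAT, HISAT2 and TopHat2, with build mm39 and no versions. The read counter was not stated there. Recomputed from the counts, the deposited FPKM values equal reads over gene length and a library size of the DESeq2 kind, and they serve for levels between genes.

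Counts were scaled to CPM with TMM factors (edgeR 4.0.16, R 4.3.3), and log2 ratios used a prior count of 0.5. Genes at 1 CPM or more in at least 1 library were tested for a 2-fold difference with an exact 95% Clopper-Pearson interval (binomial, given both libraries' reads) that left out a ratio of 1. With 1 library per condition no model was fitted, and the calculation was tested on simulated data. Reads carry no molecular identifiers, so intervals, and the floor of 3 reads for a gene without any, cover counting error only. DESeq2 1.42.0 size factors, library totals, other priors, filters and thresholds, and the FPKM values were tried as alternatives. Python 3.11.15 with scipy 1.17.1 was used.

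The members and all lists were chosen with earlier results of these data known. Genes were named where they passed 2-fold, had the largest ratio to vehicle in their role group (2 per ligand, at 5 CPM or more) or the highest mean FPKM (2 per group). Up to 4 genes per neighbouring list and 6 check genes were added. Some genes that this rule names are not reported here. Other genes named serve as markers, overlaps or the rest of a role group. Overlaps were read from the deposited coordinates, and near-identical copies from 50-base windows in GENCODE M21 transcripts.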

Additional observations from a re-analysis of the deposited data

How the results depend on the processing

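Scaling by DESeq2 size factors or plain library totals, and use of the deposited FPKM values, left every count of the 38 enzyme genes past 2-fold as reported. Among the neighbouring lists, library totals brought Col18a1 and Pxylp1 past 2-fold lower with TGF-beta1, at -1.01 each on the log2 scale. The median log2 ratio of TGF-beta1 over vehicle lay between -0.02 and 0.02 over all alternatives, on both sides of 0. A prior count of 2 left 3 genes higher with TGF-beta1, without Chst13. Counting only genes at 10 CPM or more left 2 higher with TGF-beta1 than with vehicle, Sulf1 and Hs6st2, and 1 lower with Osm than with TGF-beta1, Hs6st2. With no filter, 1 gene was lower with TGF-beta1 than with vehicle and 2 were higher with Osm than with TGF-beta1. The added gene is Chst8, with 1, 11 and 8 reads in TGF-beta1, Osm and vehicle cells. A 1.5-fold threshold gave 1 gene lower with TGF-beta1 than with vehicle, 2 higher with Osm than with vehicle, and 3 higher with Osm than with TGF-beta1. No paired analysis was possible because each condition has 1 library, and for the same reason no library could be left out.

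Depth limits the faint genes. Chst13, Chst7, Chst10 and B3gat2 had 9 to 61 reads per library, and 15 of the 53 genes were too low to compare. Of the members, 7 overlap another gene at 1 CPM or more, namely Chpf2, Ndst1, Ext2, Sulf2, Hs6st1, Chst15 and B3gat2. Near-identical sequence in transcripts of other genes covered 37.9% of the 50-base windows of Chpf2 and 22.8% of those of B3gat2, whose values are uncertain to that extent.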
